A study of Homo sapiens with 8 samples.

Results

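The genes described here are the G protein subunits, the enzymes that make and break cyclic AMP (cAMP), protein kinase A (PKA) and the regulators of G protein signalling (RGS), in cells of the BT474 line with high or low NPY1R. They were picked by a symbol pattern that uses no measured value, and 87 of the 26475 genes in the table of counts matched. The choice of these families was made with earlier results of these data known. BT474 is a line of human breast cancer cells, long established in culture, that carries extra copies of ERBB2. The 8 libraries were of total RNA from BT474 cells grown on plates, 4 labelled NPY1R high and 4 labelled NPY1R low, a difference that the labels enter as genotype, with no drug, clone or sorting step named in them. The series title places them in work on cells that survive lapatinib, and the comparison asks what else differs between cells rich and poor in the neuropeptide Y receptor Y1, the product of NPY1R. All 8 come from 1 cell line, and nothing says whether the replicates were separate cultures, so p-values measure the spread between these libraries, which may be technical.

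NPY1R is a receptor that couples to inhibitory G proteins. An activated receptor makes the alpha subunit exchange GDP for GTP and part from the beta-gamma dimer. Alpha subunits of the Gi class then slow adenylyl cyclase, and the alpha subunit encoded by GNAS speeds it up. Phosphodiesterases break cAMP down, and cAMP binding to the regulatory subunits of PKA frees the catalytic subunits. RGS proteins speed up the GTP hydrolysis that ends the signal.

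Libraries held from 18025648 to 30609791 expected counts. NPY1R itself (chr4:163323961-163344832, minus strand, hg38 as all positions here), which names the groups, had 699, 728, 1049 and 950 CPM in NPY1R high replicates 1 to 4 and 90.8, 94.9, 92.8 and 104 CPM in NPY1R low, where CPM is the usual count scaled for library size, here after adjusting libraries to one another. Its level was 8.96-fold higher in NPY1R high (edgeR adjusted p = 1.14e-06), so the labels and the counts of this gene go the same way. All 8 luminal epithelial markers were tested, and their summed CPM was 7348 to 8431 in the high and 7280 to 9508 in the low libraries, with GATA3 higher and EPCAM and FOXA1 lower. Of the 6 stromal markers COL1A2, DCN and PDGFRB were at 0 counts in every library, as were CD3E and MS4A1 among the immune markers. The summed stromal level, nearly all COL1A1, was 10.9 to 17.5 CPM in the NPY1R high libraries against 10.4 to 17.5 CPM in the low ones. The summed level of the 4 endothelial markers, nearly all VWF, was 9.22 to 15.6 CPM in the NPY1R high libraries against 13.5 to 18.2 CPM in the low ones, with PECAM1, CDH5 and KDR near 0. The immune sum stayed between 0.551 and 1.19 CPM. COL1A1, VWF and LYZ, the only ones of these tested, did not pass. Within groups, libraries also differed by the GC content of transcripts. Per library, the rank correlation (Spearman, over genes that are not independent) of the departure from the group mean with GC was highest in NPY1R low replicate 1, at 0.564, and lowest in the group's replicate 4, at -0.65. The part of this trend in the results was not tested beyond a fit with a GC offset for every library, in which all 12 genes called below were called again. These are bulk samples, in which fewer cells of a kind and less RNA per cell cannot be told apart.

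Of the 87 genes, 52 had enough counts to be tested. By the quasi-likelihood test of edgeR, 12 passed a Benjamini-Hochberg adjusted p of 0.05 over all genes, 5 higher and 7 lower in NPY1R high. That is 23.1% of those tested, where 13.6% of all 14008 tested genes passed (5.78% higher and 7.81% lower). GNAI1, GNB5, ADCY1, PDE3A and RGS11 rose. GNB1, GNB4, PDE4D, PRKACB, PRKAR2B, RGS10 and RGS16 fell. Changes were mostly small: only PDE3A, PRKAR2B and RGS11 changed at least 2-fold, as did 3.2% of all genes. The median log2 fold change (high over low, as throughout) was -0.107 for the 52 and -0.029 for all genes, and the median size of change, sign ignored, was 0.287 against 0.144. NPY1R high and low libraries did not overlap for 18 of the 52 (34.6%), against 20.2% of all genes. At an unadjusted p under 0.05 stood 21 of the 52 (40.4%), against 26.2% of all genes.

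**Figure D1:**
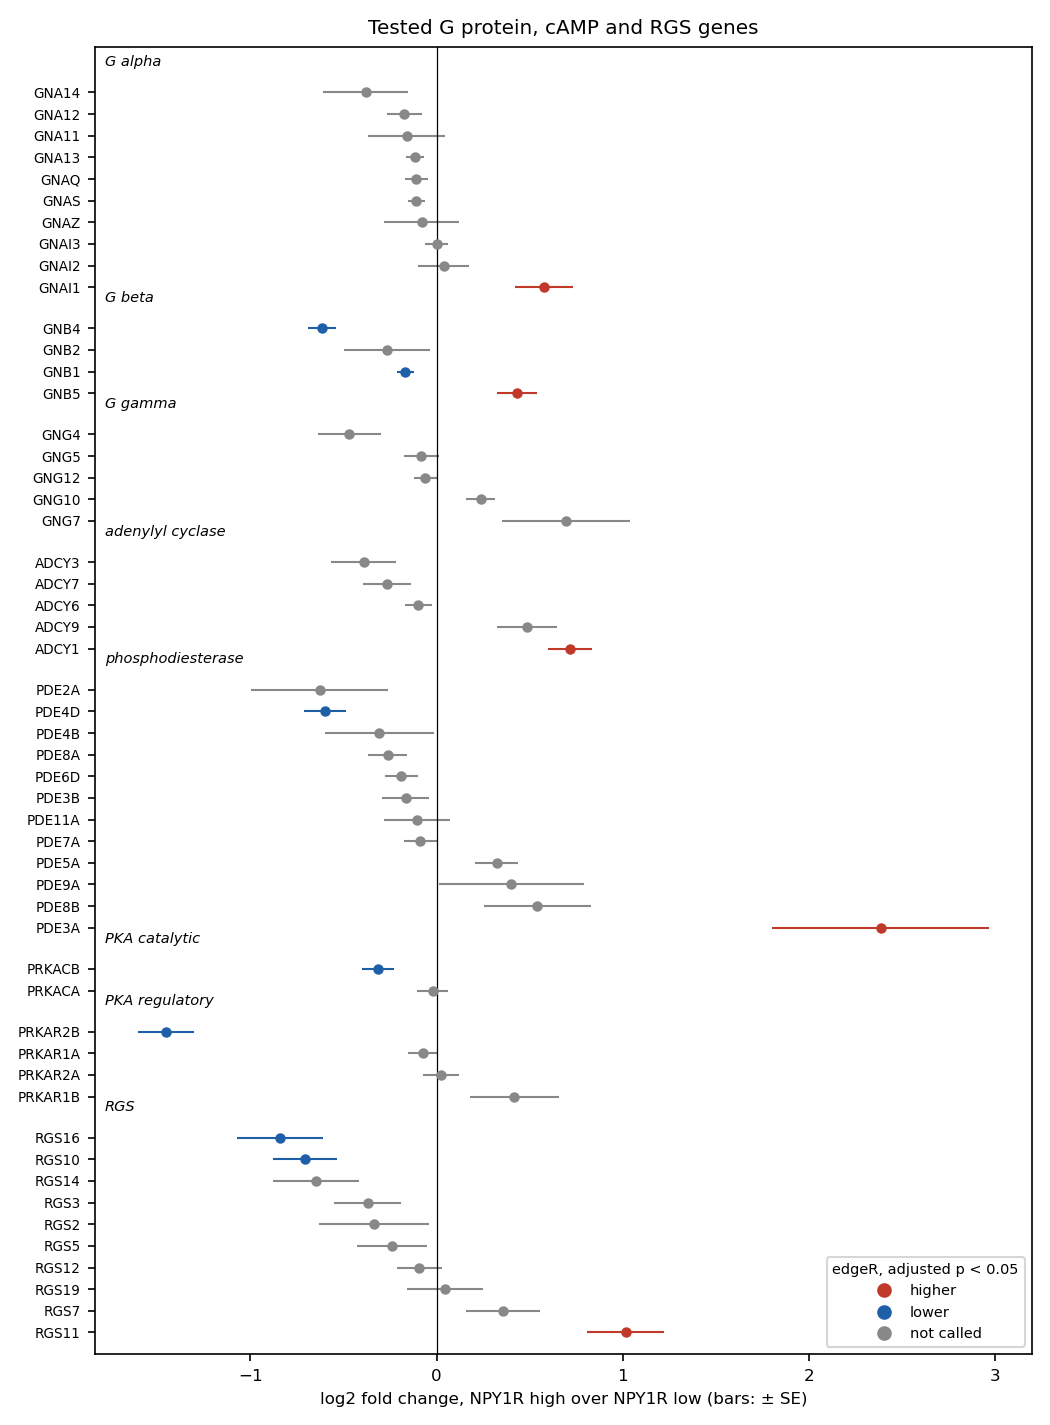
Log2 fold change (NPY1R high over NPY1R low, bars ± SE) of the 52 tested genes by family, with genes past an edgeR adjusted p of 0.05 in red (higher) and blue (lower). Most points lie within 0.5 of 0, and PDE3A, RGS11 and PRKAR2B lie farthest out among the 12 coloured ones.

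The balance of rises and falls depended on the scaling. Of all calls 42.5% were higher with the trimmed mean of ratios (TMM) used here, 54.0% with library totals and 56.3% with upper-quartile factors. The TMM reference was NPY1R low replicate 4, the default choice and the library farthest toward low GC. With each other library as reference, 49.5% to 53.1% of calls were higher and GNB1 was lost, and PRKACB was lost with some. With upper-quartile factors 7 of the 52 tested genes were higher and 4 lower, beside 1009 higher and 783 lower over all genes. ADCY9 and GNG10 joined the rises, and GNB1, PRKACB and RGS16 dropped out of the falls. The median over all genes moved only from -0.029 to 0.025. GNB4, ADCY1, PDE4D, PRKAR2B and RGS11 passed the threshold under every alternative run, and the other 7 lost it under some. All 7 were lost at the stricter adjusted p of 0.01, and their other losses are described with each gene.

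**Figure D2:**
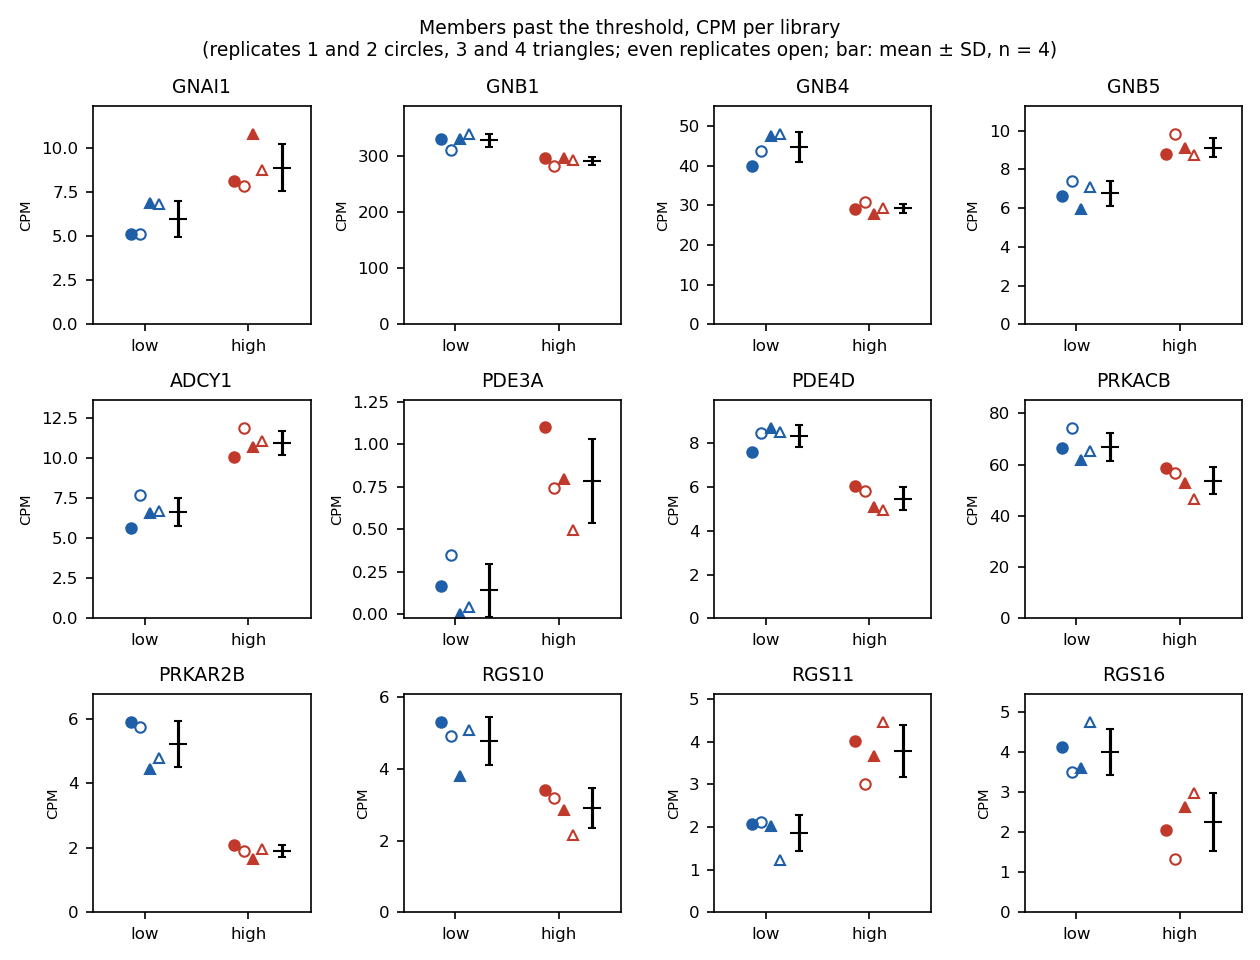
CPM in each library of the 12 genes past the threshold, with replicates 1 and 2 as circles, 3 and 4 as triangles, even replicates open, and the mean ± SD (n = 4) in black. In all 12 panels the highest value of the lower group lies below the lowest of the other group.

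Promoters of the called genes were searched for the cAMP response element (CRE), the site bound by CREB, a transcription factor that PKA phosphorylates. The windows, from RefSeq for GRCh38.p14, span 250 bases before to 50 after the start that RefSeq's table gives, and 73 of the 87 genes had one. That start can belong to another transcript than the outermost one. Of the 11 called genes with a window, 7 had it within 100 bases of the gene's GENCODE start. It lay 25834 bases inside PDE4D, 202834 inside PDE3A and 366803 inside GNAI1, whose outermost promoters were not searched. In GNB4 it lay 120 bases inside, so the window took in the outermost start and only part of the promoter before it. The full element TGACGTCA, which is its own reverse complement, was in 4 of the 73 (5.48%) and in 1.85% of all 35116 windows. Those 4 were GNAO1, GNG7, PDE4A and PDE7B, of which only GNG7 had enough counts to be tested and it was not called. The core TGACG, on either strand and also present inside each full element, was in 19 of the 73 (26%) and in 24.6% of all windows. Among the 11 called genes with a window, 0 held the full element and 3 held the core element, namely ADCY1, PRKACB and GNB1. The part before the start is printed for these and for PRKAR2B, the gene with the largest fall, whose window had no core element. Sequences run 5′ to 3′ on the gene's strand, and capitals mark TGACG or its reverse complement CGTCA.
ADCY1, chr7:45573890-45574139, + strand: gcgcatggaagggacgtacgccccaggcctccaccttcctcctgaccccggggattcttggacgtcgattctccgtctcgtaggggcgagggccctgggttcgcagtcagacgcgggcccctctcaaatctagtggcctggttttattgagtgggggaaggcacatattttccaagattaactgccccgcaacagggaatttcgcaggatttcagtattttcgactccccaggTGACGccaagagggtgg
PRKACB, chr1:84077829-84078078, + strand: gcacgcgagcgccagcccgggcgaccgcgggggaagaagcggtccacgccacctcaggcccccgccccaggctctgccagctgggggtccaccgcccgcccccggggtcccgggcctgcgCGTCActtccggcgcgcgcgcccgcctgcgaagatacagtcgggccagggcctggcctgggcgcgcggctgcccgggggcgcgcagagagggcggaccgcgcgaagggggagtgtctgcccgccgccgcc
GNB1, chr1:1891088-1891337, - strand: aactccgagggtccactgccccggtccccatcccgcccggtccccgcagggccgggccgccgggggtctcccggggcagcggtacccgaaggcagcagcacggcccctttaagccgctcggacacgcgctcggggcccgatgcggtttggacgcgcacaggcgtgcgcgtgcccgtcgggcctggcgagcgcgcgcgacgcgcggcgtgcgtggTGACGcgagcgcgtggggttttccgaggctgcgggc
PRKAR2B, chr7:107044455-107044704, + strand: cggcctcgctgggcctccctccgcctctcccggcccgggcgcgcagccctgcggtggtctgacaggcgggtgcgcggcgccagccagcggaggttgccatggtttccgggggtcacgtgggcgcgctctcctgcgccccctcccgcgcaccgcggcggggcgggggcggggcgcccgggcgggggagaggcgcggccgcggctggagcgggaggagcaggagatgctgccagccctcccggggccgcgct
In these stretches the core element begins 17 bases before the RefSeq start in ADCY1, 130 before it in PRKACB and 36 before it in GNB1. A match describes letters only.

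Among alpha subunits, GNAI1 rose and none of the other 9 tested passed, with changes from -0.38 to 0.04 on the log2 scale. That is 10% called, beside 13.6% of all tested genes. GNAI1 (chr7:79768028-80226181, plus strand) encodes an inhibitory alpha subunit of the class that NPY1R engages. It stood at 8.11, 7.85, 10.8 and 8.76 CPM in NPY1R high replicates 1 to 4 and at 5.10, 5.11, 6.86 and 6.80 CPM in NPY1R low. Every NPY1R high library lay above every NPY1R low one, and in both groups replicates 3 and 4 exceeded replicates 1 and 2. The log2 fold change was 0.58 (SE 0.15), a 1.49-fold rise (edgeR adjusted p = 0.0339). Leaving out NPY1R high replicate 1, 3 or 4, or NPY1R low replicate 1 or 2, took the adjusted p of GNAI1 to 0.0543, 0.0857, 0.0672, 0.091 and 0.0875.

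The other Gi alpha genes were not called. GNAI3 had 156 ± 9.29 CPM in the NPY1R high libraries against 156 ± 8.54 CPM in the low ones, and GNAI2 had 38.1 ± 3.31 and 37.1 ± 7.46 CPM (SD, n = 4 each). Log2 fold changes were -0.00 (SE 0.06) for GNAI3 and 0.04 (SE 0.14) for GNAI2. GNAS, the stimulatory alpha subunit, had the highest CPM of the 87 genes, a scale that takes no account of transcript length. It had 928, 901, 902 and 916 CPM in the NPY1R high libraries and 1008, 990, 975 and 959 CPM in the NPY1R low ones. These ranges did not overlap, yet the difference was small (log2 fold change -0.11, SE 0.05, edgeR adjusted p = 0.164). GNA13, which encodes another alpha subunit, likewise did not overlap between groups, at 493 to 534 CPM in the NPY1R high libraries against 542 to 577 CPM in the low ones (log2 fold change -0.12, SE 0.05, edgeR adjusted p = 0.152). GNA11, GNA12, GNA14, GNAQ and GNAZ overlapped. GNAO1 and GNA15 had too few counts to test, 26 and 1 over all libraries.

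Of the 4 beta subunits tested 3 were called, GNB5 higher and GNB1 and GNB4 lower, and GNB3 was too low to test. That is 75%, beside 13.6% of all tested genes, but of only 4 genes, and the GNB1 call was lost in most alternatives. GNB4 (chr3:179396089-179451590, minus strand) had 29.2, 30.8, 27.8 and 29.3 CPM in the NPY1R high libraries and 39.9, 43.8, 47.5 and 48.0 CPM in the NPY1R low libraries. NPY1R high was tight and well below NPY1R low, where replicates 3 and 4 were highest. The log2 fold change of GNB4 was -0.61 (SE 0.08), 1.53-fold lower in NPY1R high (edgeR adjusted p = 0.000497). GNB1 (chr1:1785285-1891117, minus strand), the beta subunit with the highest CPM and the largest share per kilobase, had 295, 281, 297 and 292 CPM in NPY1R high against 330, 311, 330 and 338 CPM in NPY1R low. The groups parted by little, with a log2 fold change of -0.17 (SE 0.05, edgeR adjusted p = 0.0412). This call was lost in 24 of 29 alternatives, with a log2 fold change as small as -0.11 and an adjusted p up to 0.24. It did not hold without any of NPY1R high replicates 1 to 4 (0.089, 0.121, 0.149 and 0.209) or without NPY1R low replicate 1, 3 or 4 (0.224, 0.104 and 0.187).

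GNB5 (chr15:52115105-52191369, minus strand), an atypical beta subunit that pairs with the RGS6, RGS7, RGS9 and RGS11 proteins in place of a gamma subunit, went the other way. Its CPM were 8.79, 9.82, 9.12 and 8.76 in NPY1R high and 6.61, 7.39, 5.95 and 7.11 in NPY1R low. All NPY1R high values exceeded all NPY1R low values, with a log2 fold change of 0.43 (SE 0.11, edgeR adjusted p = 0.0243). Without NPY1R high replicate 1 or 2, or NPY1R low replicate 1 or 3, the adjusted p of GNB5 was 0.0534, 0.0744, 0.0553 and 0.0735. GNB2 was not called. It had 98.4, 79.5, 70.7 and 86.1 CPM in the NPY1R high libraries and 126, 127, 95.0 and 54.4 CPM in the NPY1R low ones, and its transcript is 63.9% GC. The NPY1R low libraries spanned the whole NPY1R high range (log2 fold change -0.27, SE 0.23, edgeR adjusted p = 0.538). Without NPY1R low replicate 4, the lowest library for GNB2 and the one farthest toward low GC, its log2 fold change was -0.44 (edgeR adjusted p = 0.0283). Read as shares of the beta family in counts per kilobase of transcript, GNB4 made up 4.94% ± 0.32 in NPY1R high and 6.55% ± 1.17 in NPY1R low (SD, n = 4 each), and these shares overlapped. The GNB5 shares did not overlap, at 0.67% ± 0.06 in NPY1R high and 0.43% ± 0.06 in NPY1R low (SD, n = 4 each).

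Among 5 gamma subunits tested 0 were called by edgeR, 2 had an unadjusted p under 0.05, and DESeq2 called 1, GNG10. Over all tested genes 13.6% were called by edgeR and 26.2% had an unadjusted p under 0.05. GNG12 led the family in CPM, with 92.7, 91.0, 93.9 and 89.9 CPM in the NPY1R high libraries against 98.4, 98.8, 85.4 and 100.4 CPM in the low ones. Only NPY1R low replicate 3 lay below the NPY1R high libraries (log2 fold change -0.06, SE 0.06, edgeR adjusted p = 0.606). GNG10 did not overlap, at 29.2, 31.2, 36.0 and 32.4 CPM against 26.5, 27.5, 27.2 and 28.1 CPM, and missed the threshold (log2 fold change 0.24, SE 0.08, edgeR adjusted p = 0.0742). It passed in 9 of 29 alternatives. GNG10 overlaps the readthrough gene DNAJC25-GNG10 on the same strand, listed at 0 in every library, so the split of reads between them is uncertain. GNG4, GNG5 and GNG7 overlapped, and the other 5 gamma genes were too low to test.

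Adenylyl cyclases make cAMP, and 1 of the 5 tested was called (20%, beside 13.6% of all tested genes). ADCY1 (chr7:45574140-45723116, plus strand), a cyclase stimulated by calcium and calmodulin, had 10.1, 11.9, 10.7 and 11.1 CPM in the NPY1R high libraries and 5.60, 7.71, 6.59 and 6.68 CPM in the NPY1R low ones. The lowest NPY1R high library was above the highest NPY1R low library by more than 2 CPM. The log2 fold change was 0.72 (SE 0.12), a 1.64-fold rise (edgeR adjusted p = 0.00298), and was 0.73 in replicates 1 and 2 and 0.71 in replicates 3 and 4. Among the printed genes, ADCY1 has the core element nearest its start. Genes that were not called had it nearer, at -1 from the start in GNAI3 and at -4 in GNB2.

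ADCY6, a cyclase that Gi and calcium inhibit, led the family in CPM and per kilobase. It had 66.3, 63.6, 58.3 and 72.3 CPM in the NPY1R high libraries and 68.7, 70.1, 72.8 and 67.0 CPM in the NPY1R low ones, with overlap (log2 fold change -0.10, SE 0.07, edgeR adjusted p = 0.442). ADCY9 was not called, at 23.2, 22.5, 16.6 and 24.2 CPM against 17.0, 18.2, 15.0 and 11.5 CPM (log2 fold change 0.49, SE 0.16, edgeR adjusted p = 0.0776). It passed in some alternatives, among them DESeq2 (adjusted p = 0.0151) and the GC offset (edgeR adjusted p = 0.00322). Without NPY1R high replicate 3 its edgeR adjusted p was 0.0225, and without each other library it was 0.0574 to 0.17. ADCY3 and ADCY7 had log2 fold changes of -0.39 and -0.27 without a call. In counts per kilobase, ADCY1 made up 5.57% ± 0.65 of the family in NPY1R high and 3.34% ± 0.41 in NPY1R low, ADCY9 17.7% ± 1.44 and 12.5% ± 1.74, and ADCY7 4.42% ± 0.30 and 5.26% ± 0.12 (SD, n = 4 each). These 3 shares did not overlap between the groups, while ADCY6 held most of the family in both. ADCY2, ADCY4, ADCY5, ADCY8 and ADCY10 were too low to test.

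**Figure D3:**
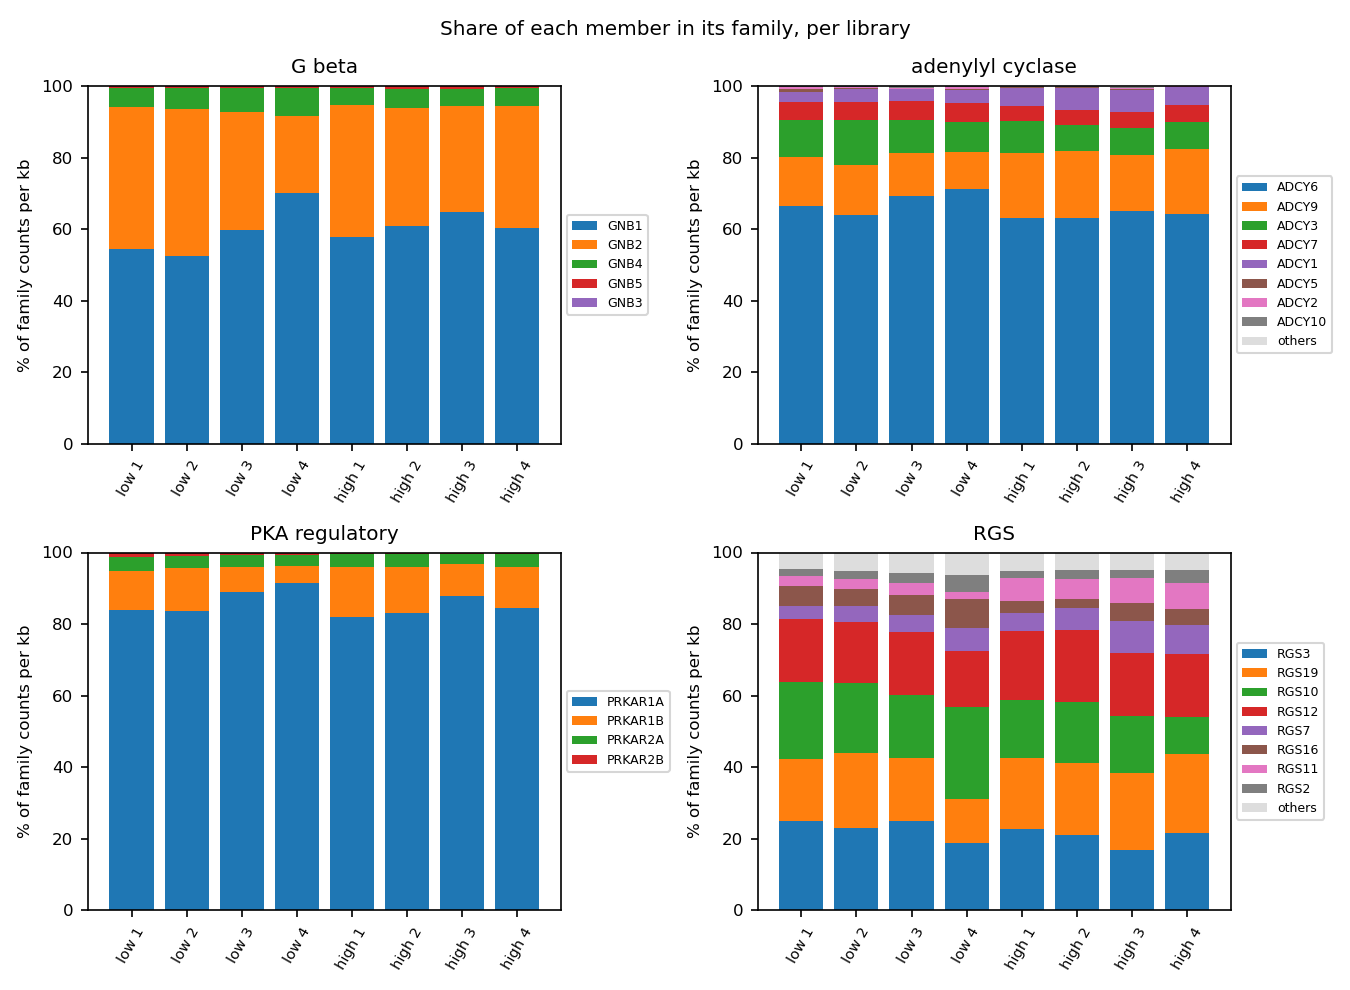
Share of each member in the counts per kilobase of its family, in percent, per library, for beta subunits, adenylyl cyclases, PKA regulatory subunits and RGS genes (the 8 largest members, others in grey). GNB1, ADCY6 and PRKAR1A take the largest share in every library, and RGS11 takes more of the RGS bar in the 4 NPY1R high libraries.

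Phosphodiesterases gave a rise and a fall among 12 tested (16.7%, beside 13.6% of all tested genes). PDE3A (chr12:20369245-20684381, plus strand), a cAMP phosphodiesterase that cGMP inhibits, had 32, 20, 22 and 9 expected counts in NPY1R high and 5, 10, 0 and 1 in NPY1R low. In CPM this was 1.10, 0.744, 0.796 and 0.496 against 0.168, 0.350, 0 and 0.0393, with no overlap. The log2 fold change of 2.38 (SE 0.58, edgeR adjusted p = 0.0227) rests on few counts. PDE3A met the count filter in the 4 NPY1R high libraries and in 0 of the NPY1R low ones. In the main run it was thus tested only through the group where it is high. Its call and its place among the 2-fold changes there carry that limit. PDE3A kept its call with no filter, and was not tested with a filter of 1 CPM in 4 libraries or of 10 counts in every library. The log2 difference was 1.82 in replicates 1 and 2 and 4.15 in replicates 3 and 4. Without NPY1R high replicate 1 or 2, or NPY1R low replicate 1, the adjusted p was 0.068, 0.0514 and 0.0548, and without NPY1R low replicate 2 the log2 fold change was 3.30. Its relative PDE3B was at 7.21 ± 0.963 and 8.11 ± 0.708 CPM (SD, n = 4 each), and was not called. In counts per kilobase PDE3A was 7.95% ± 1.99 of the pair in NPY1R high and 1.31% ± 1.45 in NPY1R low.

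PDE4D (chr5:58969038-60522120, minus strand), a phosphodiesterase specific for cAMP, fell. It had 6.05, 5.81, 5.07 and 4.96 CPM in the NPY1R high libraries and 7.58, 8.48, 8.69 and 8.52 CPM in the NPY1R low ones, without overlap. Its log2 fold change was -0.60 (SE 0.11), 1.52-fold lower in NPY1R high (edgeR adjusted p = 0.00586). PDE4D overlaps PART1 on the opposite strand, and the use of strand in counting is not given in the sources used here.

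PDE7A, another cAMP-specific enzyme, led the family in CPM with 67.1, 68.2, 78.7 and 75.0 in NPY1R high and 68.6, 72.3, 77.3 and 88.9 in NPY1R low. In both groups replicates 3 and 4 were higher, and the groups overlapped (log2 fold change -0.09, SE 0.09, edgeR adjusted p = 0.609). The sign turned without NPY1R low replicate 4, to 0.03. PDE5A, which acts on cGMP, did not overlap, at 27.2, 27.1, 32.9 and 30.5 CPM against 21.7, 19.7, 26.9 and 25.9 CPM, and missed the threshold (log2 fold change 0.32, SE 0.11, edgeR adjusted p = 0.0983). Its edgeR adjusted p was 0.0303 with the replicate number as a block and 0.0456 without NPY1R low replicate 4. PDE8A also did not overlap, at 8.48 to 10.5 CPM against 10.8 to 12.3 CPM (log2 fold change -0.26, SE 0.10, edgeR adjusted p = 0.142). PDE2A, PDE4B, PDE6D, PDE8B, PDE9A and PDE11A overlapped. The 10 other phosphodiesterase genes were too low to test.

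Regulatory subunits of PKA held the largest fall among the 52 tested genes. PRKAR2B (chr7:107044649-107161811, plus strand), the type II beta regulatory subunit, had 2.10, 1.90, 1.66 and 1.98 CPM in the NPY1R high libraries and 5.91, 5.74, 4.44 and 4.79 CPM in the NPY1R low ones. The highest NPY1R high library was below the lowest NPY1R low library by more than 2 CPM. The log2 fold change was -1.45 (SE 0.15), 2.74-fold lower in NPY1R high (edgeR adjusted p = 0.000188), and was -1.54 in replicates 1 and 2 and -1.33 in replicates 3 and 4. PRKAR2A, the other type II regulatory subunit, stood at 20.9 ± 1.41 and 20.6 ± 2.10 CPM (SD, n = 4 each) with no call. In counts per kilobase PRKAR2B made up 9.73%, 8.68%, 8.90% and 9.52% of the type II pair in NPY1R high and 21.9%, 23.5%, 20.5% and 22.1% in NPY1R low.

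PRKAR1A, the type I alpha subunit, led the family with 443, 432, 504 and 438 CPM in the NPY1R high libraries against 437, 456, 482 and 539 CPM in the low ones. The groups overlapped widely (log2 fold change -0.07, SE 0.08, edgeR adjusted p = 0.619), and without NPY1R low replicate 4 the value was 0.02. PRKAR1B was not called, at 51.1, 44.6, 34.3 and 40.6 CPM against 38.8, 44.0, 25.9 and 18.9 CPM, with overlap (log2 fold change 0.42, SE 0.24, edgeR adjusted p = 0.317). Its transcript is 62.6% GC, and with a GC offset its log2 fold change was 0.49 (edgeR adjusted p = 0.00688).

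Of the catalytic subunits PRKACB was called lower and PRKACA was not called. PRKACB (chr1:84078062-84238498, plus strand) had 58.6, 56.8, 52.9 and 46.6 CPM in the NPY1R high libraries and 66.4, 74.3, 61.6 and 65.1 CPM in the NPY1R low ones, close but without overlap. Its log2 fold change was -0.31 (SE 0.09, edgeR adjusted p = 0.0361). PRKACB lost the call in 17 of 29 alternatives, with upper-quartile factors and library totals among them (0.0541 and 0.0745). It was also lost without NPY1R high replicate 2, 3 or 4 (0.0585, 0.0972 and 0.128) and without NPY1R low replicate 1, 2 or 4 (0.0991, 0.0937 and 0.0503). PRKACA was at 26.4 ± 2.33 and 26.8 ± 1.61 CPM (SD, n = 4 each). PRKACG had 1 count in all.

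RGS genes gave 1 rise and 2 falls among 10 tested (30%, beside 13.6% of all tested genes). RGS11 (chr16:268301-275980, minus strand), a partner of the GNB5 protein, had 4.01, 3.01, 3.66 and 4.46 CPM in the NPY1R high libraries and 2.08, 2.12, 2.01 and 1.22 CPM in the NPY1R low ones. Groups were apart, and NPY1R low replicate 4 was lowest. The log2 fold change was 1.01 (SE 0.21, edgeR adjusted p = 0.00905), and was 0.89 without that library. RGS11 overlaps FAM234A and ARHGDIG on the opposite strand. RGS7, also a GNB5 partner, was at 3.79 ± 0.902 and 2.95 ± 0.474 CPM (SD, n = 4 each) with overlap (edgeR adjusted p = 0.308). RGS6 and RGS9, the other partners, had 41 and 4 counts over all libraries.

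RGS10 (chr10:119499828-119542708, minus strand), a small RGS protein that acts on Gi, had 3.40, 3.20, 2.86 and 2.15 CPM in the NPY1R high libraries and 5.30, 4.90, 3.80 and 5.07 CPM in the NPY1R low ones. There was no overlap, with a log2 fold change of -0.71 (SE 0.17, edgeR adjusted p = 0.0226). Without NPY1R high replicate 3 or 4, or NPY1R low replicate 1 or 2, its adjusted p was 0.0643, 0.0648, 0.0793 and 0.0519. It was 0.0714 without NPY1R high replicate 3 and NPY1R low replicate 4 together. RGS16 (chr1:182598623-182604408, minus strand), which acts on Gi and Gq, had 2.06, 1.34, 2.64 and 2.97 CPM against 4.13, 3.50, 3.61 and 4.75 CPM. Groups did not overlap (log2 fold change -0.84, SE 0.23, edgeR adjusted p = 0.0386), and the change was -1.19 in replicates 1 and 2 and -0.56 in replicates 3 and 4. RGS16 kept its call without NPY1R high replicate 4, and without each of the other 7 libraries its adjusted p lay between 0.0514 and 0.103. It was also lost with no filter (0.0507), with upper-quartile factors (0.058) and without NPY1R high replicate 3 and NPY1R low replicate 4 together (0.0681).

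RGS3 had the highest CPM of the family as a mean over all 8 libraries, though not in NPY1R high alone, where RGS12 averaged 23.0 against 22.6 CPM. RGS3 had 26.6, 21.8, 16.7 and 25.3 CPM in NPY1R high and 33.9, 32.3, 29.8 and 20.6 in NPY1R low. NPY1R low replicate 4 fell inside the NPY1R high range (log2 fold change -0.37, SE 0.18, edgeR adjusted p = 0.228). Without that library the adjusted p was 0.0386. RGS14, which carries an RGS domain and a motif that binds Gi alpha, did not overlap, at 1.65, 1.04, 0.977 and 1.32 CPM against 1.78, 2.56, 1.69 and 1.77 CPM (log2 fold change -0.65, SE 0.23, edgeR adjusted p = 0.0985). RGS2, RGS5, RGS12 and RGS19 overlapped. The 11 RGS genes too low to test include RGS1, RGS8, RGS13, RGS18 and RGS21, at 0 counts in every library. Together with GNG8 these make 6 genes at 0, and the 35 untested genes had at most 73 counts over the 8 libraries.

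Differences were also computed within replicates 1 and 2 and within replicates 3 and 4, a division taken from earlier work on these data, since the labels name no batch. The direction of the 12 called genes is fixed in both sets because their groups do not overlap, so the sets show sizes only. PDE3A, RGS11 and RGS16 differed most between the sets among the called genes.

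**Figure D4:**
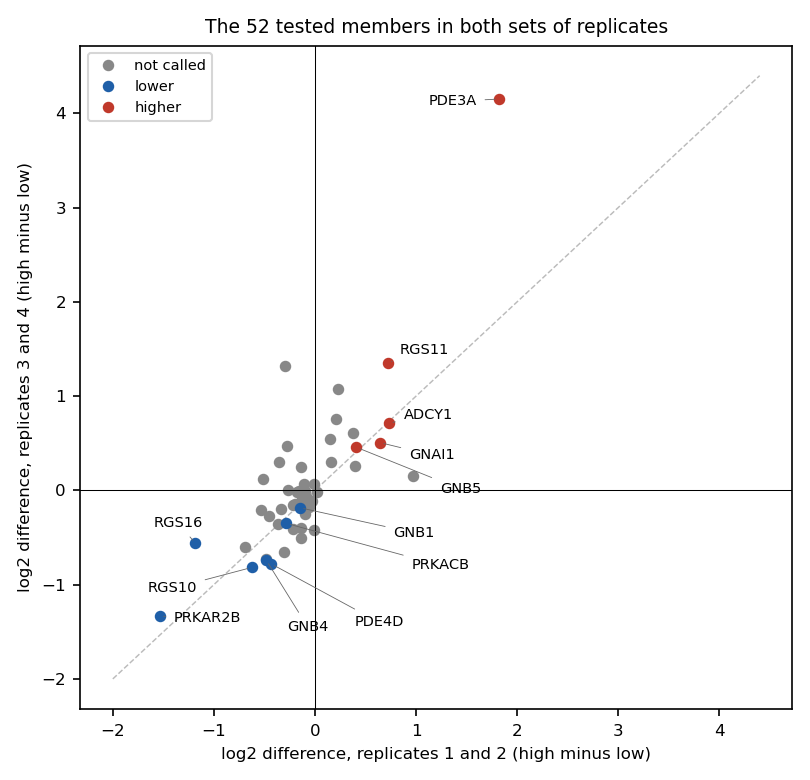
Log2 difference (NPY1R high minus low) in replicates 3 and 4 against that in replicates 1 and 2, 1 point for each of the 52 tested genes, with the line of equality dashed. The called genes lie on the same side of 0 on both axes, as groups without overlap must, and PDE3A lies far above the line at 1.82 and 4.15.

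Around these families, 75 genes of a wider pathway list were in the table and 55 were tested. Of these 7 were higher, NPY1R among them, and 3 lower, 18.2% in all beside 13.6% of all tested genes. Without NPY1R, which defines the groups, 9 of 54 were called (16.7%). The 55 had a median log2 fold change of -0.064. The receptor gene NPY5R rose with NPY1R (log2 fold change 2.73, SE 0.16), from 1.34 ± 0.217 to 8.92 ± 1.19 CPM (SD, n = 4 each), but the genes overlap on opposite strands of chromosome 4, so its count is uncertain. Of the genes of PKA inhibitor peptides, PKIA and PKIB rose. PKIB had 151, 161, 167 and 148 CPM in the NPY1R high libraries and 92.3, 98.1, 90.8 and 105 CPM in the NPY1R low ones (log2 fold change 0.70, SE 0.06, edgeR adjusted p = 9e-05). PKIA had 135, 143, 137 and 125 CPM against 106, 101, 87.1 and 92.4 CPM (log2 fold change 0.48, SE 0.07, edgeR adjusted p = 0.0015). Neither overlapped, and PKIG, the third inhibitor, was at 19.4 ± 3.25 and 13.9 ± 2.71 CPM (SD, n = 4 each; edgeR adjusted p = 0.089). Of 13 genes of PKA anchoring proteins (AKAP) tested, 11 were not called, AKAP12 rose and AKAP2 fell. AKAP12 was at 1.51 ± 0.181 CPM in NPY1R high against 0.710 ± 0.128 CPM (SD, n = 4 each), without overlap (log2 fold change 1.08, SE 0.21). AKAP2 had 16, 11, 3.43 and 0 expected counts in NPY1R high and 49, 34.23, 33.86 and 71 in NPY1R low, and it overlaps PALM2-AKAP2 on the same strand, so its fall is uncertain.

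Upstream of the G proteins, ADRBK2, the gene of G protein-coupled receptor kinase GRK3, was at 6.02 ± 0.505 CPM in NPY1R low and fell to 3.81 ± 0.140 CPM in NPY1R high (SD, n = 4 each, log2 fold change -0.66, SE 0.12). GPSM2, whose protein binds Gi alpha and orients the mitotic spindle, was at 68.9 ± 5.32 CPM in NPY1R low and fell to 36.6 ± 2.69 CPM in NPY1R high (SD, n = 4 each, log2 fold change -0.91, SE 0.08). Both arrestins, ARRB1 and ARRB2, had no call. Among the 11 tested CREB family, coactivator and SIK genes 0 were called by edgeR, DESeq2 or limma-voom and 0 had an unadjusted p under 0.05, with log2 fold changes from -0.27 to 0.12. Over all tested genes 13.6% were called by edgeR and 26.2% had an unadjusted p under 0.05, and 11 genes are few. Of 8 tested genes that cAMP can induce, FOS and PPARGC1A rose (25%, in a short list, beside 13.6% of all tested genes). FOS had 36.0, 38.2, 38.7 and 37.2 CPM in the NPY1R high libraries and 17.9, 22.7, 19.7 and 17.4 CPM in the NPY1R low ones (log2 fold change 0.95, SE 0.09, edgeR adjusted p = 0.000114). PPARGC1A, a coactivator of mitochondrial genes, had 13.7, 14.2, 16.4 and 13.7 CPM against 8.29, 7.60, 9.84 and 7.97 CPM (log2 fold change 0.79, SE 0.11, edgeR adjusted p = 0.00129). NR4A1, NR4A2, PER1, DUSP1, VGF and AREG were not called. Other cAMP effectors (3 tested) and potassium channels gated by G beta-gamma (2 tested) likewise had 0 calls by these tools and 0 at that unadjusted p. Those lists are too short to set against the shares of all genes. NPY, PYY, PPY and NPY2R, ligands and a receptor of the same system, were at 0 counts in every library.

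**Figure D5:**
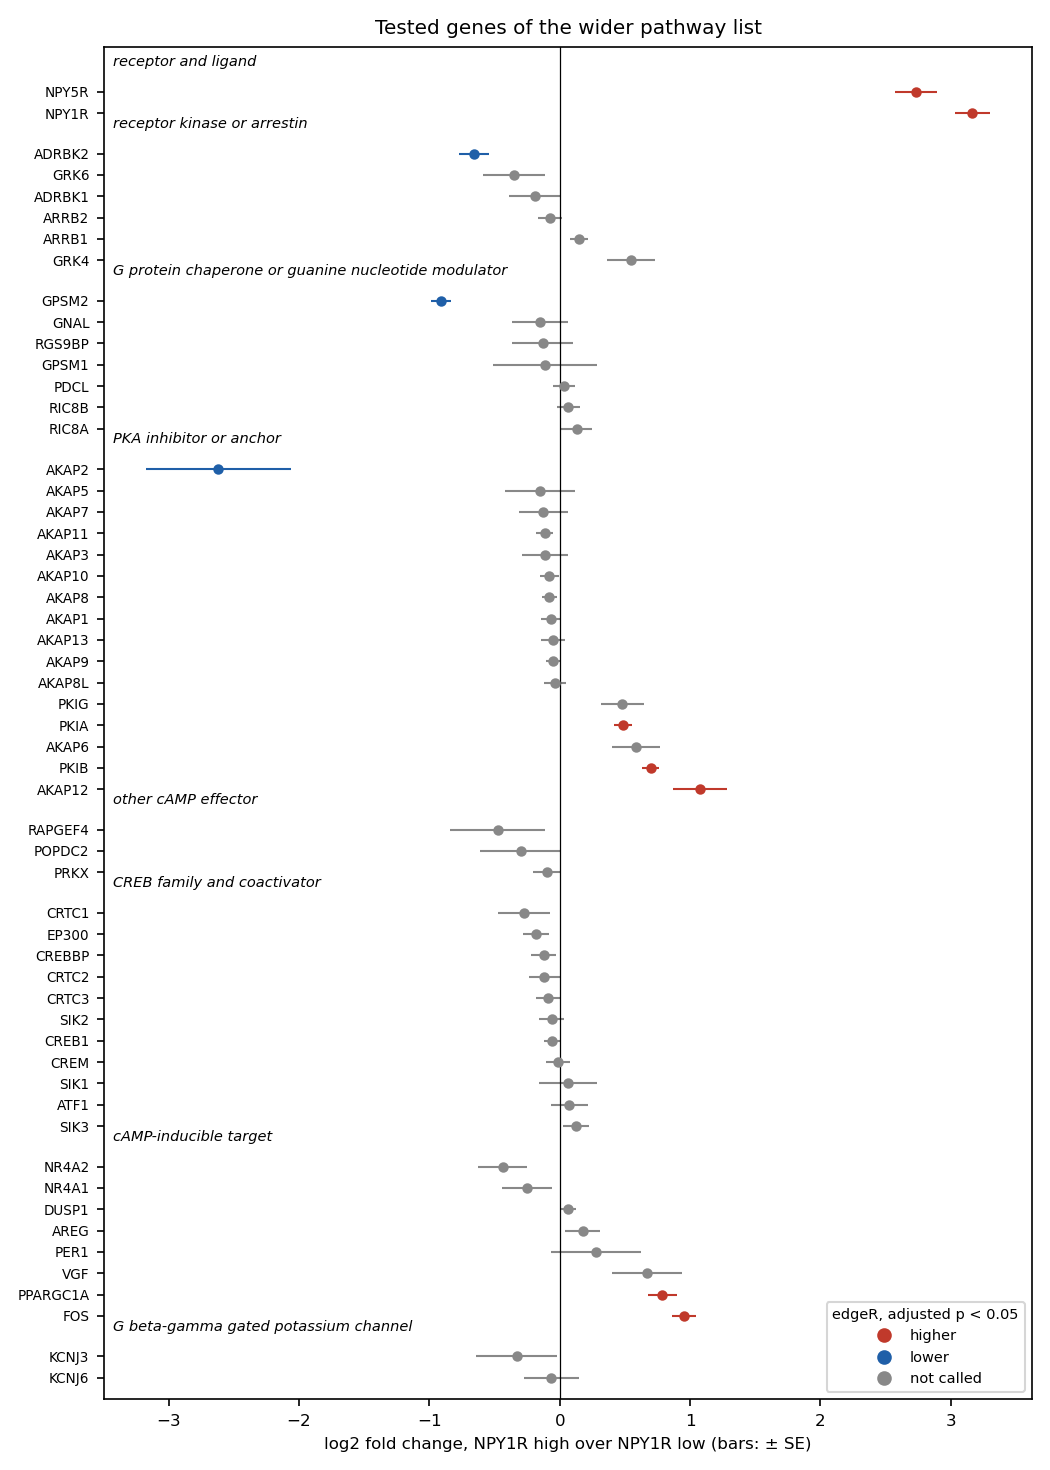
Log2 fold change (NPY1R high over NPY1R low, bars ± SE) of the 55 tested genes of the wider pathway list by role, coloured as in the plot of the gene families. The CREB family lies near 0 without a call, while PKIA and PKIB, AKAP12, FOS and PPARGC1A lie to the right. Of the 55 genes 18.2% were called, beside 13.6% of all tested genes.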

How the data were processed

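Total RNA of 8 BT474 libraries, 4 NPY1R high and 4 NPY1R low by their labels, was prepared with a stranded Illumina kit, per the labels' protocols. The authors deposited expected counts per gene. STAR 2.5.2, RSEM 1.3.0 and hg38 are named per the submitters' processing notes, while annotation and strand setting are not given in the sources used here. All columns matched a library (0 unmatched). Expected counts were rounded and tested with edgeR 4.0.16 (R 4.3.3): filterByExpr with a minimum count of 10, TMM factors, quasi-likelihood fit of group alone, Benjamini-Hochberg adjustment over 14008 genes, threshold 0.05. SE is the log2 fold change over the root of F. CPM use unrounded counts and TMM-scaled totals. Lengths, GC (94.1% of tested genes) and positions are from GENCODE 29, and promoters from RefSeq for GRCh38.p14. Every library held at least 18025648 counts.

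Values in every library are given for called genes and for the gene with the highest mean CPM of each family, and genes whose groups did not overlap are named with values. Of the wider pathway list, called genes are named. The genes and lists were chosen with earlier results of these data known. GNB2, ADCY9, PRKAR1B, RGS7, PKIG and the uncalled relatives of called genes were named after their values were seen. Alternatives were other scalings, filters, DESeq2 1.42.0, limma-voom (limma 3.58.1), a replicate block, a GC offset, a stricter threshold of 0.01 and leaving out each library. Each library other than the default also served as the TMM reference.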

Additional observations from a re-analysis of the deposited data

Results flagged for a closer look

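Groups of 4 CPM values were searched for a library far from the other 3 (gap over range above 0.829) in 48 groups, in which chance alone gives about 2.4. There were 4. RGS11 was 1.22 CPM in NPY1R low replicate 4 and 2.01 to 2.12 CPM in the other NPY1R low libraries. GNG12 was 85.4 CPM in NPY1R low replicate 3 and 98.4 to 100.4 CPM in the others of its group. PRKAR1A was 504 CPM in NPY1R high replicate 3 and 432 to 443 CPM in the other NPY1R high libraries. RGS14 was 2.56 CPM in NPY1R low replicate 2 and 1.69 to 1.78 CPM in the others.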

How the results depend on the processing

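Of 1128 values recomputed under 29 alternatives, 1007 stayed on the same side of the threshold in the same direction, or moved little. These include NPY1R, genes of the wider list and genes not called in the main run. Of the 12 called genes 5 were called throughout, while GNB1 lost its call in 24 alternatives, PRKACB in 17 and RGS16 in 11. The main run gave 5 higher and 7 lower of the 52 tested genes (23.1%), beside 13.6% of all genes. Upper-quartile factors gave 7 higher and 4 lower, and 1009 higher and 783 lower over all genes. With no filter, where 81 of the 87 were tested, 5 were higher and 4 lower. Over all genes 909 were then higher and 800 lower, 8.65% of those tested. At an adjusted p of 0.01, 2 of the 52 were higher and 3 lower. Over all genes 470 were then higher and 562 lower, 7.37% of those tested. Leaving out NPY1R high replicate 3 and NPY1R low replicate 4 together, an alternative chosen after seeing the data, gave 6 higher and 4 lower. Over all genes that run gave 974 higher and 961 lower. With replicates 1 and 2 set against 3 and 4 by a model term, 9 were higher and 7 lower, and 1205 higher and 1681 lower over all genes. The GC offset gave 9 higher and 8 lower, and 1162 higher and 1793 lower over all genes. The replicate block with the GC offset gave 8 higher and 10 lower, and 1341 higher and 2023 lower over all genes. Leaving out 1 library gave 2 to 6 higher and 3 to 6 lower of the 52 tested, and 624 to 1068 higher and 625 to 1064 lower over all genes. The fewest came without NPY1R low replicate 1, with 2 of the 52 higher and 3 lower, beside 9.67% of all genes. The share among the 52 was then about that of all genes. The cause was not tested. Over the main run and the 29 alternatives, log2 fold changes ran from -0.1156 to 0.0266 for PDE7A and from -0.1007 to 0.0231 for PRKAR1A. For both genes the sign was reversed only without NPY1R low replicate 4.

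With the replicate number as a block, 6 genes were higher and 6 lower (GNB1 lost, PDE5A gained), and over all genes 805 higher and 1028 lower. Same-numbered libraries had correlations of their deviations of 0.3386, 0.1567, 0.0907 and 0.0178, and 1 of 4 NPY1R high libraries was closest to the NPY1R low library of its number. In the column names, the sample numbers of same-numbered libraries follow each other. The main fit took no pairing, but these values cannot decide whether there was one, since the deviations also followed GC.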
